A study of Mus musculus with 4 samples.

Results

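The enzymes of glycolysis and of the citric acid cycle were followed on 4 single-channel arrays of total RNA of CA1, the output field of the hippocampus. The RNA came from young male C57BL/6J mice that had only been handled. They served as controls for shocked mice, and the arrays differ in the hour of extraction, 1, 2, 4 or 6 hr after the last shock of those other animals, with 1 array at each hour. How many mice an array stands for is not stated in the labels. Members were the probe sets whose platform annotation gives exactly 1 gene symbol out of 36 listed enzyme genes. This gave 54 probe sets of 34 genes, out of 8252 genes named in this way on the array. For Gpi1 and Eno1 no such probe set was found, so the glucose phosphate isomerase step and the enolase found in most tissues are not described.

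Glycolysis splits glucose in the cytosol into pyruvate and yields ATP without oxygen. Pyruvate is then reduced to lactate by lactate dehydrogenase, or enters mitochondria, where the pyruvate dehydrogenase complex turns it into acetyl-CoA for the citric acid cycle, which supplies electrons to the respiratory chain. Several steps have isozymes that differ by tissue, such as the enolase of neurons (Eno2) and that of muscle (Eno3), or the pyruvate kinase of most tissues (Pkm) and that of liver and red cells (Pklr). Neurons rely on glucose and on oxidation of pyruvate and lactate, and astrocytes are a source of lactate in brain.

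Values are the deposited linear intensities, in arbitrary units and scaled to a common level on each array. For log2 values, intensities under 54.7, the 25th percentile, were set to that floor. Probe sets bind with different strength, so the intensity of one gene cannot be set against that of another, and only changes between arrays are compared. In bulk tissue, fewer cells of a type and less RNA per cell cannot be told apart. The array at 2 hr stood apart in several ways. Its median intensity was 173, against 198 to 204 on the others, and the 3' to 5' ratio of its Gapdh control was 7.56, against 4.84 to 6.25. The 3' to 5' ratio of its Actb control did not stand apart, at 3.20 against 2.99 to 3.44. Summed CA1 pyramidal markers (5 of 6 on the array, all above the floor) were 8754 at 2 hr and 6884 to 7315 otherwise. Of these 5 markers 3 were highest at 2 hr, led by Dcn at 3935, while Lefty1 (651) and Pou3f1 (426.5) were lowest there. Summed neuronal markers (7 of 8 on the array) ran from 27796 to 31125, highest at 2 hr. The largest part was Snap25, at 20903 at 2 hr and 17370 to 19304 elsewhere. Of the 7 neuronal markers 2 were highest at 2 hr and 1 was lowest there, and Eno2 among them is itself a member. Summed astrocyte markers (6 of 7 on the array, all above the floor) were 22176 at 2 hr and 20424 to 20699 otherwise. The largest part was Aldoc, itself a glycolytic enzyme, at 10061, 11672, 11500 and 10488 at 1, 2, 4 and 6 hr. Of these 6 markers 4 were highest at 2 hr, while Gfap (1545) was lowest there. At 4 hr the choroid plexus marker Ttr, a thyroid hormone carrier, read 3217, and 140.3 to 196 elsewhere. The other choroid plexus markers on the array did not peak there. Kl read 54.8, 370, 266 and 247 at 1, 2, 4 and 6 hr, and Folr1 read 278, 119.8, 206 and 214. At 6 hr summed oligodendrocyte markers were 16948, against 21992 to 23592, and summed endothelial markers 995, against 1445 to 1590, with 4 of 6 oligodendrocyte and 4 of 5 endothelial markers lowest at that hour. Of these endothelial markers Cdh5 was under the floor at both 1 hr (33.5) and 6 hr (28.6), so its order there has no weight. Pecam1 (236.3) and Flt1 (319.5) were close to their 2 hr values (241.8 and 324.9), while Cldn5 read 318 at 6 hr and 394 to 638.5 elsewhere. How far these differences enter the results below was not tested.

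Most of the pathway was read brightly and varied little. Of the 44 member probe sets that are not array controls, 35 (30 genes) lay above the filter on mean level, the 40th percentile, and entered the test. None of these 35 had a value under the floor. Over the 4 arrays 33 of the 35 stayed within a 2-fold range, where 74.7% of all 7453 tested probe sets did. The median SD was 0.21 log2 units for members and 0.29 for all tested probe sets. That difference went with brightness. In the brightest quartile of tested probe sets, which held 22 members, the median SD was 0.19 for members and 0.19 for all, and 10 of the 22 members lay below the median of all. An SD here is taken over 4 arrays at 4 different hours and not over replicates.

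**Figure D1:**
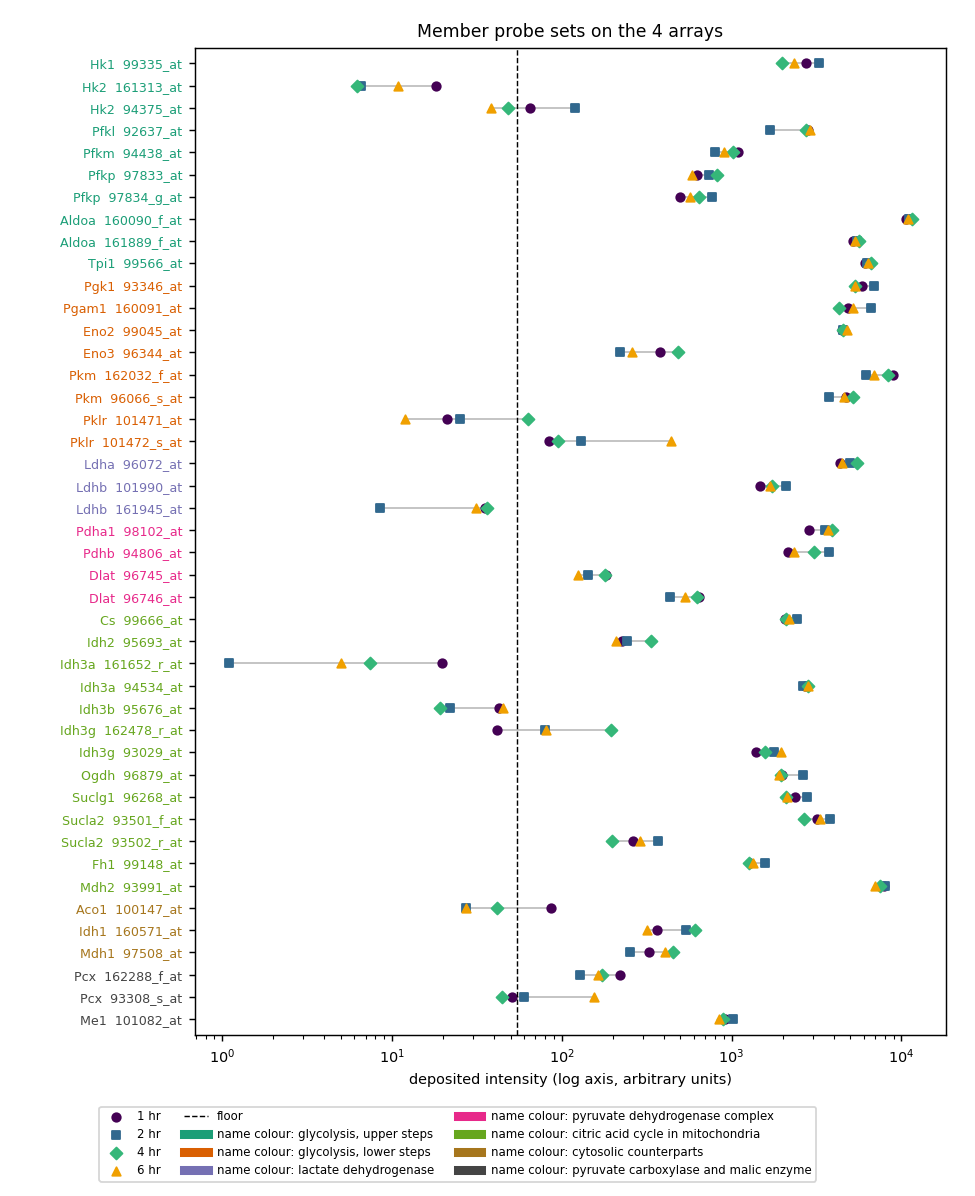
Deposited intensity (log axis) of the 44 member probe sets that are not array controls, with 1 marker for each hour and a grey line for the range. Most bright enzymes have 4 markers close together, while Pklr, Hk2 and Idh3g each have a probe set spread across a wide range near the floor, drawn as a dashed line at 54.7.

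**Figure D2:**
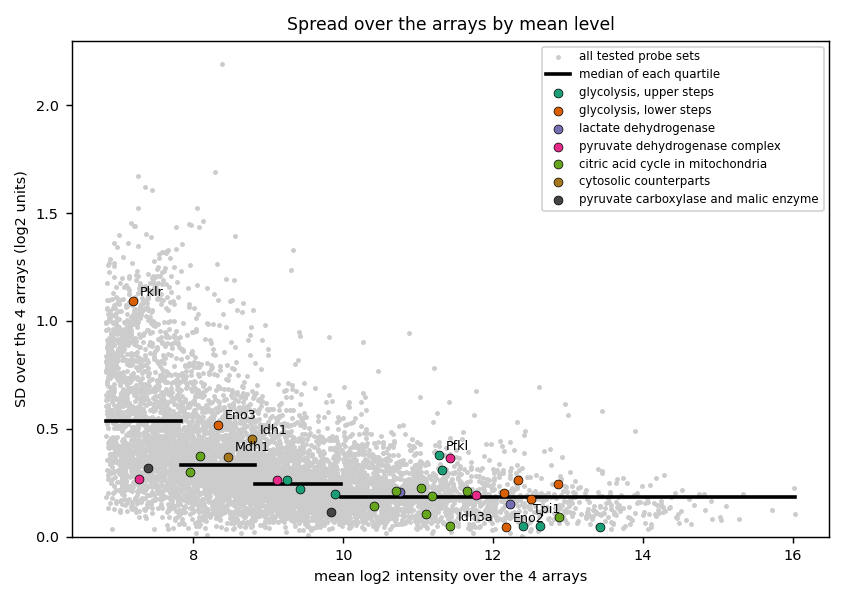
SD over the 4 arrays in log2 units against mean log2 intensity for all 7453 tested probe sets (grey) and the 35 tested members (coloured by role), with the median SD of each quartile of mean level as a black bar. The median SD of all tested probe sets falls with brightness. That of members is 0.32, 0.37, 0.22 and 0.19 from the dimmest to the brightest quartile, and Pklr lies far above the other members.

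No member changed in a straight line with the hour of extraction past the threshold. Of 35 tested member probe sets 0 passed limma's test with Benjamini-Hochberg adjustment over all 7453, where 0% of all probe sets passed. The smallest adjusted p was 0.946 among members. At an unadjusted p under 0.05 there was 1 member, against 5.13% of all tested probe sets. Ordinary least squares and limma with an intensity-dependent robust prior also gave 0 after adjustment over all probe sets, with 333 and 330 unadjusted. Slopes were below 0 for 21 members and above 0 for 14, where 3661 of all 7453 tested probe sets had a slope below 0. The median slope was -0.015 log2 units per hr for members and 0.0015 for all tested probe sets. The arrays at different hours have no replicates, so these p-values set a slope against the scatter around a line. That scatter may be technical or may hold changes that do not follow a line.

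The 5 member probe sets with the smallest unadjusted p belonged to different steps. They were Pklr, Mdh1, Hk1, Idh3g and Dlat, and limma's adjusted p was 0.946 for Pklr and above that for the other 4. Their slopes were 0.40 ± 0.14 log2 units per hr for Pklr, 0.12 ± 0.080 for Mdh1, -0.089 ± 0.076 for Hk1, 0.071 ± 0.066 for Idh3g and -0.074 ± 0.073 for the probe set 96745_at of Dlat (SE, 4 arrays).

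In the upper steps of glycolysis, where glucose is phosphorylated and cleaved, a tight pair of enzymes contrasted with looser ones. Aldoa, the aldolase of muscle and brain, read 10689, 11054, 11492 and 10904 at 1, 2, 4 and 6 hr with the probe set 160090_f_at. Its other probe set, 161889_f_at, read 5219, 5445, 5644 and 5353 at the same hours. Both were lowest at 1 hr and highest at 4 hr within a 1.08-fold range, an order so tight that it turned with the scaling (highest at 2 hr when the arrays are set to a common median). Tpi1, which interconverts the 2 triose phosphates made by aldolase, ran from 6069 to 6604, an SD of 3.52% of its mean. Hexokinase, which traps glucose in the cell, was read through Hk1 at 2762, 3268, 1988 and 2341 at 1, 2, 4 and 6 hr, a 1.64-fold range with the 2 hr array highest. Hk2, the hexokinase of muscle and fat, was near the floor. Its probe set 94375_at read 64.7, 119.8, 48.0 and 38.1, so 2 of 4 values were under the floor, and 161313_at read 6.2 to 18.3. Neither Hk2 probe set was tested.

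Phosphofructokinase, the main control point of glycolysis, has a liver-type (Pfkl), a muscle-type (Pfkm) and a platelet-type (Pfkp) subunit, and all 3 were read on every array. Pfkl read 2823, 1676, 2744 and 2915 at 1, 2, 4 and 6 hr, low at 2 hr and close together otherwise. Pfkm read 1099, 801, 1017 and 906, also with its low point at 2 hr, which moved to 6 hr with arrays set to a common median. Pfkp was read at 624, 739, 816 and 585 by one probe set and at 499.6, 763, 644 and 569 by the other, and neither was lowest at 2 hr. Within each array the log2 ratio of Pfkl to Pfkp, taken about its mean over the arrays, was 0.32, -0.68, -0.11 and 0.46, low at 2 hr. The ratio of Pfkm to Pfkp was lowest at 2 hr too, at -0.35. A ratio within an array is free of that array's scaling, and with 1 array at each hour it has no replicate.

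In the lower steps, which make ATP and pyruvate, Pgk1 and Pgam1 were highest at 2 hr and Pkm was lowest there. Pgk1, the first ATP-making enzyme, ran from 5336 at 6 hr to 6897 at 2 hr. Pgam1, a phosphoglycerate mutase, ran from 4308 at 4 hr to 6629.5 at 2 hr. Pkm read 8879, 6179, 8352 and 6879 at 1, 2, 4 and 6 hr with 162032_f_at, and 4691, 3734, 5203 and 4607 with 96066_s_at. Both Pkm probe sets had their lowest value at 2 hr (162032_f_at at 6 hr with a common median), by -0.37 log2 units from the mean of the other 3 arrays in each case. The suffixes f and s mark probe sets that can bind a family of similar sequences or transcripts of several genes, so processed pseudogenes may contribute to Aldoa and Pkm.

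Gapdh, the triose phosphate dehydrogenase often used as a reference gene, had a single symbol only on 6 array controls, which were not tested. Its 3' control read 45887, 32241, 38613 and 43165 at 1, 2, 4 and 6 hr, its middle control 20678, 12769.6, 18275 and 20447, and its 5' control 9476, 4265, 6176 and 8835. All 3 were lowest at 2 hr, and the 5' control moved most, over a 2.22-fold range against 1.42-fold for the 3' control. Probe sets that Gapdh shares with pseudogene or predicted loci are no members, and they disagreed. One read 19604, 20287, 19754 and 23769 at these hours, lowest at 1 hr. The other read 581, 192, 379.5 and 427.5, lowest at 2 hr. The 3 Gapdh controls for the opposite strand, which labelled antisense RNA should not bind, read 55.0 to 958. All 4 values lie within that range for 11 of the 35 tested member probe sets, those of Pklr, Pcx, Eno3, Idh1, Idh2 and Mdh1, both of Dlat and of Pfkp, and the dimmer one of Sucla2. The share of all tested probe sets within that range was not counted. The brightest quartile starts at a mean level of 998.5, above that range, and holds 22 of the 35 members but only 1864 of all 7453 tested probe sets.

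Eno2 varied less between arrays than Eno3, the other enolase read here. Eno2, the neuronal enolase, read 4483, 4562, 4531 and 4795 at 1, 2, 4 and 6 hr, a 1.07-fold range. Eno3, the muscle enolase, read 381, 221, 484 and 258 at the same hours, a 2.19-fold range with no order in time. The log2 ratio of Eno2 to Eno3 within an array thus ranged over 1.14 log2 units. Skeletal muscle markers, all 7 on the array, had a sum of 4009 to 5057. Most of it came from Pvalb (3259 to 3678), which interneurons also make. All 7 had their highest reading at 1 hr, but only 4 of them were above the floor on every array. Tnni2 was under the floor throughout, so its order has no weight. Myh4, a fast muscle myosin, read 287, 179, 256 and 132 at 1, 2, 4 and 6 hr, and like Eno3 it was higher at 1 and 4 hr than at 2 and 6 hr, as was Pvalb. Ckm, the creatine kinase of muscle, read 259.6, 156, 28.9 and 116, and Acta1, skeletal muscle actin, 271, 269, 136 and 162, so both were lowest at 4 hr, where Eno3 was highest. Of the other muscle markers Mylpf read 362, 123, 204.5 and 228, and Tnnt3 read 145.5, 13.3, 5.6 and 71.4. Neither had the order of Eno3, and the 2 and 4 hr values of Tnnt3 were under the floor. The part of muscle RNA in the Eno3 values was not tested.

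Pklr was the only tested member that stood apart on 1 array, meaning at least 2-fold from the nearest of the other 3 in one direction. Above the others there was 1 of 35 members, against 1.36% of all tested probe sets, and below them 0 of 35, against 6.37%. The Pklr probe set 101472_s_at read 83.6, 129, 95.7 and 439.7 at 1, 2, 4 and 6 hr, so the 6 hr value lay apart. The second probe set of Pklr, 101471_at, read 21.0, 25.1, 63.3 and 11.9 and was thus under the floor at 6 hr. The Pklr signal at 6 hr thus rests on 1 probe set, of the kind that can bind transcripts of several genes. Liver markers (4 of 5 on the array) summed to 178 at 6 hr and to 136 to 419.6 otherwise, with Alb, serum albumin, at 29.3 and Fgb, a fibrinogen chain, at 9.0 at 6 hr, both under the floor. Of the other liver markers Apoa1 was under the floor on every array, and Apoa2 read 99.9 at 6 hr and 73.0 to 178 elsewhere. Blood markers (3 of 7 on the array) summed to 3402 at 6 hr and to 2101 to 4083 otherwise. Among them the red cell anion exchanger Slc4a1 read 221 at 6 hr and 83.6 to 123 elsewhere. Alas2, the first enzyme of red cell heme synthesis, read 30.6 at 6 hr, under the floor, and 52.6 to 103.4 elsewhere. The hemoglobin gene Hba-a1 read 3150 at 6 hr and 1883 to 3907 elsewhere. The part of red cell RNA in the Pklr value was not tested.

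The promoters of the pyruvate kinases and enolases are shown because the within-array ratio ranged over 2.76 log2 units for Pkm to Pklr and 1.14 for Eno2 to Eno3, among the widest of the 9 isozyme pairs. The 250 bases before the start are given for each, from RefSeq (GRCm38.p6), 5' to 3' on the strand of the gene, with CG dinucleotides in capitals. For Pkm and Pklr, which have 2 starts in the table, the first is printed.
Pkm, chr9:59656326-59656575, plus strand: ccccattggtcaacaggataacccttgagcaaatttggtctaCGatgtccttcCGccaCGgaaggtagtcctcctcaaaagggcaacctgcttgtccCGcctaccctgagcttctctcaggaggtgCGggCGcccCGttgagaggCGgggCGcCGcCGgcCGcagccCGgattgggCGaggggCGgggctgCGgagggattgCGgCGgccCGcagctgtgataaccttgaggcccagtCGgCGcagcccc
Pklr, chr3:89135892-89136141, plus strand: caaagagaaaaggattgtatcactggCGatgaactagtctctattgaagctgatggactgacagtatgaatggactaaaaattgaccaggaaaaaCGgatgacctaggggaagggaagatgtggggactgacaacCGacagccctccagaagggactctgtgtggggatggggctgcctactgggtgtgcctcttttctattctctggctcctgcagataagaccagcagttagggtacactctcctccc
Eno2, chr6:124769674-124769923, minus strand: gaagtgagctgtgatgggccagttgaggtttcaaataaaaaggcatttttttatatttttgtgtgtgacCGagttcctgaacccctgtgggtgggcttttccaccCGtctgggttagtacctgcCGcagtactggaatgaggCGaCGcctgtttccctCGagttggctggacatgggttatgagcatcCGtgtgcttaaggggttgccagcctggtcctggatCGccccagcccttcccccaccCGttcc
Eno3, chr11:70656926-70657175, plus strand: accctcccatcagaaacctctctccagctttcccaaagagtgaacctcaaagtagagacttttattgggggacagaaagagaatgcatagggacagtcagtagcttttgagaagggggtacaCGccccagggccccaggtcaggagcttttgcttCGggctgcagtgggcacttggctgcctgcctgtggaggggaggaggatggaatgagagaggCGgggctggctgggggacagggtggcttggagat
The Pkm window holds 21 CG dinucleotides and the Pklr window 3, and the second starts of these genes have 18 and 5. The Eno2 window holds 9 and the Eno3 window 3. Set against the number expected from the C and G content, the ratio was 0.76 for this Pkm window, 0.20 for Pklr, 0.49 for Eno2 and 0.16 for Eno3. In the hexokinases, where Hk1 was well above the floor and Hk2 near it, the ratio was 0.32 for Hk1 (median over its 2 starts) and 0.85 for Hk2.

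CG-rich starts were common over the pathway, and over the whole array their share was higher among brighter probe sets. The promoter table held 32 of the 34 member genes (not Gapdh and Idh3a), and 22 of the 32 had a ratio above 0.6, taking the median over a gene's starts. Among all 27025 listed genes 33.7% had a ratio above 0.6, and of the 6576 that are also on the array 58.7%. From the dimmest to the brightest quartile of tested probe sets the share of genes was 55.8%, 65.5%, 70.4% and 74.7%, and it was 39.4% for genes with no tested probe set. The share was 78.9% for the 19 members whose best probe set is in the brightest quartile and 74.7% for all 1259 genes of that quartile. Eno3 and Pklr had the lowest ratios of the 32, followed by Pfkm and Hk1. These are counts of letters in a window, and nothing on these arrays measured the promoters.

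Lactate dehydrogenase interconverts pyruvate and lactate, with Ldha encoding the subunit that prevails in muscle and Ldhb the one that prevails in heart. Ldha read 4329.8, 5011, 5445 and 4479 at 1, 2, 4 and 6 hr. Ldhb read 1473, 2084, 1739.6 and 1678 with 101990_at, and its second probe set was under the floor on every array (8.5 to 36.4). Both genes were lowest at 1 hr. The log2 ratio of Ldha to Ldhb within an array ranged over 0.38 log2 units, the narrowest of the 9 isozyme pairs, with its low point at 2 hr and its high point at 4 hr.

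The subunits of the pyruvate dehydrogenase complex, the gate from glycolysis to the citric acid cycle, did not all peak at the same hour. Pdha1, the alpha subunit of its first enzyme, read 2877, 3562, 3904 and 3703 at 1, 2, 4 and 6 hr. Pdhb, the beta subunit of the same enzyme, read 2159, 3735, 3072 and 2331, a 1.73-fold range with the peak at 2 hr. Dlat, the acetyltransferase core, read 646, 433, 625 and 534.5 with 96746_at and 182, 142, 179 and 124 with 96745_at. Dlat was thus highest at 1 hr with both probe sets, where Pdha1 and Pdhb were lowest, but its 4 hr values were close to those at 1 hr. At 4 hr all 4 probe sets of the complex were above the mean of their other arrays, as were 4007 of all 7453 tested. The median difference there was 0.23 log2 units for the complex and 0.036 for all tested probe sets.

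Citric acid cycle enzymes of the mitochondrial matrix peaked most often at 2 hr. There 7 of 10 tested probe sets, for 6 of 9 genes, had their highest value, and with the pyruvate dehydrogenase complex 8 of 14. The 7 of 10 became 6 after quantile normalization and 9 with a common median, and the cause was not tested. Over all members it was 14 of 35, where 24.4% of all tested probe sets were highest at 2 hr. The other hours held the peak of 5 members at 1 hr, 12 at 4 hr and 4 at 6 hr, beside 25.9%, 26.5% and 23.2% of all tested probe sets. Bright probe sets in general tended to be highest there, with 38.2% in the brightest quartile, and in that quartile 11 of 22 members and 6 of 8 cycle probe sets were. At 2 hr the cycle probe sets differed from their mean over the remaining arrays by a median of 0.24 log2 units, against 0.085 for all probe sets of the brightest quartile and -0.01 for all tested. This pattern was chosen after the values were seen, rests on 1 array and has no test. The Gapdh ratio (7.56) and the array median (173) also set this array apart. So did the sums of CA1 markers (8754, with 2 of the 5 lowest there) and of astrocyte markers (22176, with 1 of the 6 lowest there). The largest part of the astrocyte sum was the glycolytic enzyme Aldoc, at 11672 at 2 hr and 10061 to 11500 elsewhere. The Actb ratio (3.20) did not set this array apart. The part of these differences in the result was not tested.

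**Figure D3:**
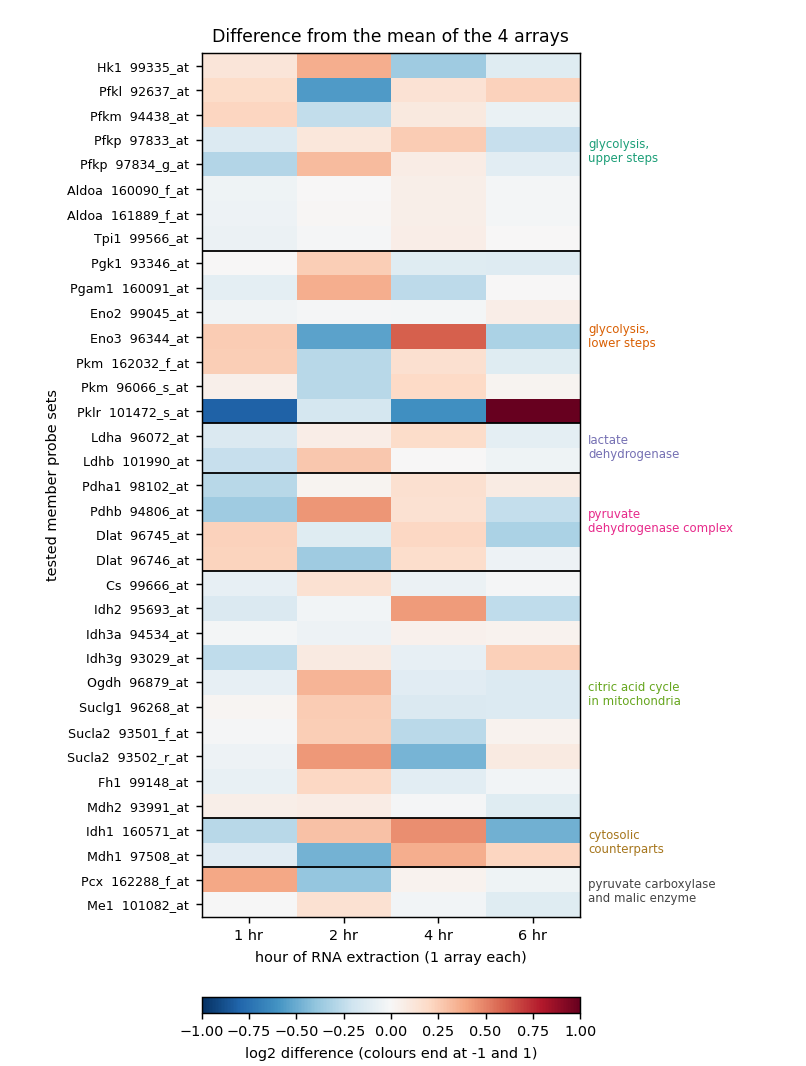
Log2 difference of each of the 35 tested member probe sets from its own mean over the 4 arrays, by hour (columns) and role (blocks of rows), with red above and blue below the mean. The block of cycle enzymes is red in 8 of 10 rows at 2 hr, Pfkl, Eno3 and Pkm are blue there, and Pklr is dark red at 6 hr.

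Single enzymes show how small most of these differences were. Cs, citrate synthase, which starts the cycle, ran from 2073.5 at 1 hr to 2440.4 at 2 hr. Ogdh, the 2-oxoglutarate dehydrogenase, read 1979.7, 2651, 1942 and 1904 at 1, 2, 4 and 6 hr, high at 2 hr only. Suclg1, the alpha subunit of succinyl-CoA ligase, ran from 2104 at 4 hr to 2769 at 2 hr. Sucla2, its ADP-forming beta subunit, read 3201, 3815, 2675 and 3298 with 93501_f_at and 263, 369, 198 and 289.8 with 93502_r_at, in the same order of arrays. Fh1, fumarase, ran from 1265 at 4 hr to 1564 at 2 hr. Mdh2, the mitochondrial malate dehydrogenase, read 7891, 7975, 7491 and 6949, within a 1.15-fold range. Differences of this size, from 1.15-fold for Mdh2 to 1.43-fold for the brighter Sucla2 probe set, cannot be set against replicates at any hour.

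The isocitrate dehydrogenases included steady probe sets and others under the floor. Idh3a, the catalytic subunit of the NAD-linked enzyme, read 2706, 2648, 2832 and 2817 with 94534_at, a 1.07-fold range, while 161652_r_at read 1.1 to 19.8. Idh3g, a regulatory subunit, read 1397, 1775, 1576 and 1963 with 93029_at, and 41.6, 79.8, 194 and 80.9 with 162478_r_at, which was not tested. Idh3b, the remaining subunit, was under the floor on all 4 arrays at 19.1 to 45.1 through its only probe set. A reading under the floor does not show that the transcript was absent, since Idh3a and Ldhb each had one probe set there and another well above it. Idh2, the mitochondrial NADP-linked enzyme, read 225, 243, 334 and 208 at 1, 2, 4 and 6 hr.

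The tested cytosolic counterparts of cycle enzymes, Idh1 and Mdh1, were highest at 4 hr, except that Idh1 was highest at 2 hr with arrays set to a common median. Idh1, which makes NADPH in the cytosol, read 364, 541, 608 and 316 at 1, 2, 4 and 6 hr, and Mdh1, of the malate-aspartate shuttle, read 325, 254, 453 and 408. Both Idh1 and Idh2 were highest at 4 hr and lowest at 6 hr. The log2 ratio of Mdh1 to Mdh2 was -0.55 about its mean at 2 hr and 0.38 at 4 hr. The 4 hr array is the one with Ttr at 3217, where Kl (266) and Folr1 (206) were within their range on the other arrays. The part of choroid plexus in these values was not tested. Aco1, the cytosolic aconitase that also regulates iron genes, read 85.9, 27.4, 41.7 and 27.3, with 3 values under the floor, and was not tested.

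Pyruvate carboxylase (Pcx), which refills the cycle and is known from astrocytes, was read by 6 probe sets that did not agree. The 162288_f_at probe set read 219, 128, 172 and 163 at 1, 2, 4 and 6 hr and was the only one tested, while 93308_s_at read 50.8, 60.3, 44.3 and 154. Of the 4 controls for Pcx, the 3' one read 690.2, 575, 573 and 524, the 5' one 49.6, 68.0, 94.1 and 209.9, and both middle ones stayed under the floor at 22.5 to 42.4. At 6 hr, 93308_s_at and the 5' control were at their highest and the 3' control at its lowest. Me1, the cytosolic malic enzyme that turns malate into pyruvate, ran from 841 at 6 hr to 1017 at 2 hr, an SD of 8.01% of its mean.

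Agreement between probe sets of 1 gene could be described for 5 members with at least 2 tested probe sets. The same array was highest for both probe sets in 3 of the 5 (Aldoa, Dlat and Sucla2), and in 276 of 903 genes on the whole array (30.6%). The same array was lowest in 3 of the 5 (Aldoa, Pkm and Sucla2), and in 30.0% of the 903. The log2 difference between both probe sets ranged over 0.013 units for Aldoa, 0.34 for Pkm, 0.39 for Sucla2 and Pfkp and 0.50 for Dlat, with a median of 0.39 for members and 0.95 for all 903 genes. With 22 of 35 tested members in the brightest quartile, brightness differs between the members and the 903 genes, and its part in this was not tested. Pairs with a partner below the filter, such as those of Pklr and Idh3g, are not in these counts.

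**Figure D4:**
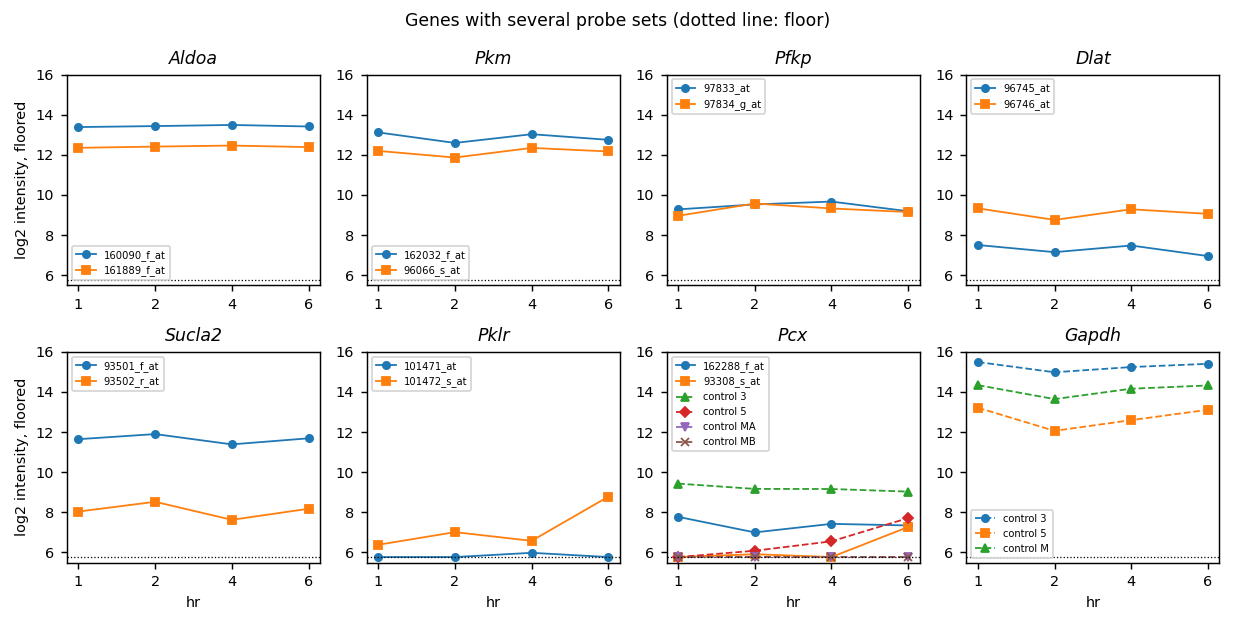
Floored log2 intensity against hour for every probe set of 8 member genes with several probe sets, with array controls dashed and the floor dotted; the opposite-strand Gapdh controls are left out. Both lines run in parallel for Aldoa and keep the same order of arrays for Sucla2, while the probe sets of Pklr and Pcx part at 6 hr and the Gapdh controls dip at 2 hr.

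Neighbouring pathways gave no calls either. Each gene of the 7 lists below entered with its brightest tested probe set, and 0 passed limma's test. Of other glycolytic enzymes and regulators 4 of 10 genes on the array were tested. Pfkfb3, which makes the activator of phosphofructokinase, read 429, 315, 289.6 and 159 at 1, 2, 4 and 6 hr (limma adjusted p = 0.884, unadjusted 0.013), and Bpgm, which makes 2,3-bisphosphoglycerate, ran from 582 at 1 hr to 1119 at 2 hr. Of gluconeogenic genes 3 of 6 were tested, with G6pc3 from 398 to 635 and G6pc from 281 to 448. Of other cycle and pyruvate dehydrogenase genes 10 of 11 were tested, and 5 of these 10 were highest at 2 hr, where they differed from the other arrays by a median of 0.19 log2 units. In that list Dlst, the succinyltransferase of the 2-oxoglutarate dehydrogenase complex, ran from 294 at 6 hr to 598 at 4 hr, and Suclg2, the GDP-forming partner of Suclg1, from 338 at 4 hr to 657.5 at 2 hr.

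In the pentose phosphate pathway, which makes NADPH from glucose 6-phosphate, all 6 genes on the array were tested, and Pgd read 425, 178, 613 and 343 while Rpe ran from 146 to 265. Of glucose and lactate transporters 4 of 8 were tested. Slc2a1, the glucose transporter of the blood-brain barrier and glia, read 77.1, 268, 327 and 140.0 at 1, 2, 4 and 6 hr, and Slc2a5, a fructose transporter, read 183, 212, 97.2 and 394. Of glycogen enzymes 4 of 6 were tested, and Pygb, the brain glycogen phosphorylase, ran from 702 at 1 hr to 1389 at 2 hr and Ugp2 from 281 at 6 hr to 502.5 at 4 hr. Of the redox shuttles 4 of 5 were tested, with Got2 from 1026 at 2 hr to 2039 at 4 hr and Gpd1 from 711 at 6 hr to 1259 at 4 hr. Highest at 2 hr were 3 of 4 genes of the other glycolytic enzymes and regulators (median difference 0.18 log2 units), 2 of 6 of the pentose phosphate pathway, 1 of 3 gluconeogenic genes, and 1 of 4 each of the transporters, the glycogen enzymes and the shuttles. The share highest at 2 hr was 24.4% of all tested probe sets and 38.2% of the brightest quartile, and with so few genes a list the counts are given as a description.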

How the data were processed

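Each array has 12488 intensity values, 1 for each probe set, as the authors deposited them. The probe-level summary is not stated in the sources used here. The trimmed mean (2% at each end) was about 500.3 on every array, a reading from the values that shows scaling to a common level. A change shared by most genes would thus be hidden. No detection calls were used, and the number of arrays limits the precision. The 66 array controls were not tested. Symbols came from the platform annotation, and all 34 member symbols matched RefSeq.

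The floor was the 25th percentile, and 7453 probe sets passed a filter at the 40th percentile of the mean log2 level. They were tested with limma 3.58.1 in R 4.3.3, fitting a line over the hours (2 residual degrees of freedom) with Benjamini-Hochberg adjustment at 0.05. Alternatives were 2 scalings, 2 floors, 2 filters, each array left out, and 4 other forms of the trend test. All members were named, with 4 values for isozymes, genes with several probe sets and the 5 smallest p, and in each related list the 2 tested genes of widest range. Members, lists and tests were chosen with earlier results of these data known.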

Additional observations from a re-analysis of the deposited data

How the results depend on the processing

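No paired analysis was possible because each hour has 1 array. The count of 0 probe sets past the trend test held under every alternative. The median spread of members kept within 1.5 times its value under every alternative run for it. Agreement between probe sets was run with the other scalings and floors. The same array was lowest in 3 of 5 genes, and in 2 of 5 after quantile normalization or with a common median. The same array was highest in 3 of 5, and in 4 of 5 with a common median. The number of members at least 2-fold above the other arrays was 1 in the main setting, 3 with no filter on mean level, 0 with the filter at the 60th percentile, and 0 to 1 with each array left out; the filters change which probe sets are counted, and the 0 came without the 6 hr array. The slope of Dlat 96745_at, below 0 with all arrays, ran from -0.10 log2 units per hr without the 2 hr array to 0.016 without the 6 hr array. Setting all arrays to a common median raised the 2 hr array by 0.17 log2 units. Members highest at 2 hr then numbered 24 of 35 and all tested probe sets 45.0%, against 14 and 24.4% on the deposited scale, and 13 and 26.6% after quantile normalization. Mitochondrial members highest at 2 hr ranged from 7 to 11 over these scalings. Their median difference there was 0.16 log2 units in the main setting, 0.39 with a common median, 0.13 after quantile normalization and 0.10 with no filter. Mitochondrial members here include the pyruvate dehydrogenase complex, while the 0.24 given above is for the 10 cycle probe sets alone. These 2 hr counts were tried after the data were seen. Dim probe sets near the floor limit what can be said of Hk2, Pklr, Aco1 and Idh3b.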
